A study of Mus musculus with 39 samples.

Results

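ATF4 (activating transcription factor 4) is the main transcription factor of the integrated stress response, and 10 genes of that response and of amino acid supply are described here across tumour CD8+ T cells and libraries labelled bulk tumour. They were taken by their symbols from both expression tables, where they are 10 of 28023 gene symbols: the regulators Atf4, Ddit3 and Trib3, the enzymes Asns, Ass1, Phgdh, Psat1 and Shmt2, and the transporter chains Slc7a5 and Slc3a2. In this response, stress-sensing kinases phosphorylate the initiation factor eIF2, general translation slows, and the Atf4 message is translated more. ATF4 protein then raises genes for amino acid uptake, amino acid synthesis and tRNA charging. Much of its control is at translation, so Atf4 mRNA is a partial readout of it. Activated T cells also depend on imported amino acids and on serine-derived carbon for growth.

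C57BL/6 wild-type mice received a faecal microbiota transplant of human volunteers' stool that had been exposed for 6 days to CZA, the labels' abbreviation for an antibiotic, or to CZA together with DAV132, a colon-targeted adsorbent. MCA-205 fibrosarcoma cells, a line syngeneic to these mice, were implanted under the skin 2 weeks later, and tumours of 25 to 35 mm2 were treated with 4 injections of 250 µg anti-PD-1 or isotype antibody, 3 days apart, with sacrifice 2 days after the last. One experiment gave the libraries labelled bulk tumour and its repeat gave CD8+ T cells sorted from tumours. The groups of each set were CZA+DAV132 anti-PD-1, CZA+DAV132 isotype, CZA anti-PD-1 and CZA isotype, with 5 libraries each, except that CZA+DAV132 isotype had 4 in the bulk set. Every mouse carried a tumour and a transplant from a CZA arm, so no group without CZA is described. The labels do not state the mice's age, or whether each library came from its own mouse, so p-values measure the spread between libraries.

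The values were TPM, each gene's share of a library's transcripts after correction for their length, and the read depth behind them is unknown. In both sets, 13 entries made of repeat sequence took part of that share. In the CD8 set it was 20.3% ± 19.3 for CZA+DAV132 anti-PD-1 and 2.83% ± 1.58 for CZA+DAV132 isotype (SD, n = 5 each, exact permutation p = 0.00794), with 54.0% in library CD8-19 and 18.8% in CD8-16. In the bulk set the share was 50.8% in T026, 13.4% in T985 and at most 0.405% in the others. A share taken by repeats lowers the TPM of other genes, so the median change of all genes stands beside each comparison. Some results are given again after median-ratio scaling, which sets the median gene alike across libraries. They are the CZA+DAV132 arm, Ass1 and the counts for DAV132 under anti-PD-1 in the CD8 set. Summed T cell markers were 3948 to 17459 TPM in the sorted libraries and 4294 to 14553 TPM in those labelled bulk tumour, while summed fibroblast and fibrosarcoma markers were 6.73 to 448 and 7.72 to 1924 TPM. The median sums were 12783 TPM (T cell) and 53.9 TPM (fibroblast) in the sorted set, and 9669 and 55.3 TPM in the bulk set. Of the 10 fibroblast and fibrosarcoma markers, only Lum was at a median of 0 in the sorted set, and only Lum and Pdgfrb in the bulk set. By these sums the bulk label goes against its markers, and the name "libraries labelled bulk tumour" is kept.

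Promoter sequences of 9 of the 10 genes were found in RefSeq (GRCm38.p6; 250 bases before to 50 after the start), all but Slc7a5. They were searched on both strands for TGATGNAA, the core of the C/EBP-ATF response element to which ATF4 binds in partnership with C/EBP proteins. It was present in the Asns and Trib3 promoters and in 3.97% of 32851 promoters of this length. The letters were not in the windows of Atf4, Ddit3, Ass1, Psat1, Phgdh, Shmt2 and Slc3a2. The match is a description of letters, not of binding. The matching promoters are shown because they carry the motif, in capitals: in Asns (chr6:7693160-7693459, minus strand) it starts at base -23 from the start site, and in Trib3 (chr2:152344011-152344310, minus strand) at base 15, where the motif reads on the other strand.
Asns: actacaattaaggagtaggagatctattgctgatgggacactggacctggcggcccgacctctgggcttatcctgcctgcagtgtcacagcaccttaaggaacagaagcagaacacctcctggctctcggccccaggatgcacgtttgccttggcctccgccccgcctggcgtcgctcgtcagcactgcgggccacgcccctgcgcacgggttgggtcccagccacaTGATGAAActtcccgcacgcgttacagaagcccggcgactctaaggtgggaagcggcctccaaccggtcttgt
Trib3: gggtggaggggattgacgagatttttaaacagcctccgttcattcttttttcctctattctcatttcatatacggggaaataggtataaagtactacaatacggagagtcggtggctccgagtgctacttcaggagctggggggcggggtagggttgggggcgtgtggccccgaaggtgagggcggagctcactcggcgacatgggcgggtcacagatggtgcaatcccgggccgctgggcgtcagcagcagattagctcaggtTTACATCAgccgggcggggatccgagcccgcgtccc

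In the CZA+DAV132 arm, the sorted CD8+ T cells had lower Ass1, Ddit3, Phgdh, Shmt2 and Slc3a2 under anti-PD-1 than under isotype antibody. These 5 of 10 genes passed limma's test with Benjamini-Hochberg adjustment (adjusted p under 0.05), by log2 changes of -0.99 to -1.38, and none passed as higher. Over all 12942 genes tested, 19.4% were called lower, and the median log2 change was -1.04 over the 10 genes and -0.34 over all genes. After median-ratio scaling the same 5 genes were called, against 14.1% of all genes called lower, and the changes were smaller, -0.53 to -0.99. The other 5 genes then had changes of -0.89 for Asns, -0.54 for Trib3, -0.38 for Psat1, -0.31 for Slc7a5 and -0.08 for Atf4. Without the repeat-rich libraries CD8-16 and CD8-19, Ass1 alone was called, against 665 of 12794 genes called lower. With scaling as well, Ass1 and Phgdh were called, against 1293 of 12794 genes called lower. All 10 genes passed the filter of at least 1 TPM in at least 4 libraries in both sets.

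**Figure D1:**
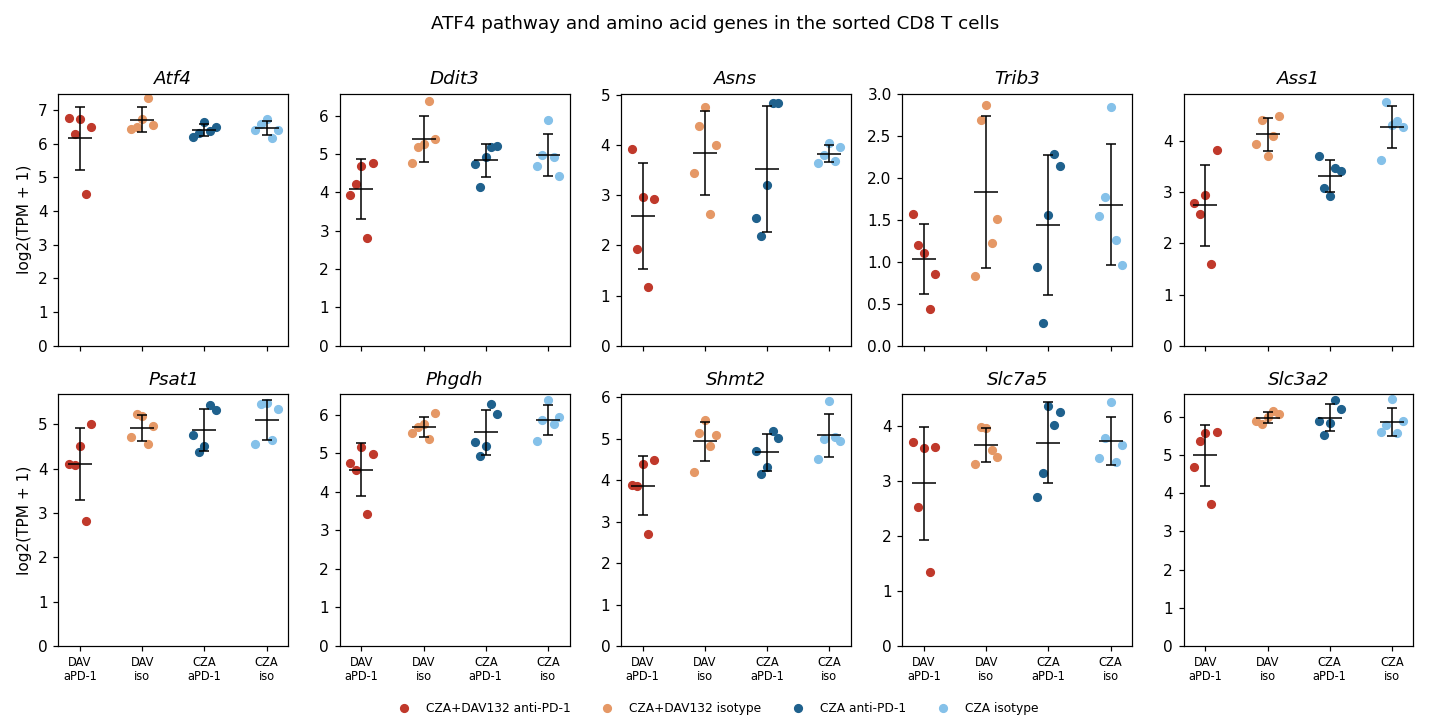
Level of each gene in the sorted CD8+ T cells, as log2(TPM + 1), in the CZA+DAV132 (DAV) and CZA arms under anti-PD-1 (aPD-1) or isotype (iso). Points are libraries and black bars are mean ± SD; the 5 CZA+DAV132 anti-PD-1 libraries all sit below the 5 CZA+DAV132 isotype libraries for Ddit3, Phgdh and Slc3a2.

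Over the 20 CD8 libraries, the median level was 89.5 TPM for Atf4, 55.8 for Slc3a2, 42.8 for Phgdh, 27.8 for Ddit3, 26.3 for Shmt2, 25.6 for Psat1, 12.1 for Ass1, 11.7 for Asns, 11.2 for Slc7a5 and 1.63 for Trib3. Ddit3, Shmt2 and Psat1 lay within the spread of each other, as did Ass1, Asns and Slc7a5. The light chain Slc7a5 stood below its heavy chain Slc3a2 on this length-corrected scale.

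Atf4 is the factor that names the group (GRCm38 chromosome 15, 80255184 to 80257541, plus strand). It stood at 108, 77.7, 106, 21.9 and 89.0 TPM in CZA+DAV132 anti-PD-1 libraries (CD8-16 to CD8-20), against 86.0, 90.1, 105, 162 and 93.2 TPM in the CZA+DAV132 isotype libraries (CD8-11 to CD8-15). The low value was CD8-19, the library with most repeats, and the groups overlapped, at a log2 change of -0.55 (SE 0.32, limma adjusted p = 0.22) and -0.08 after scaling (adjusted p = 0.83). In the CZA arm, Atf4 was 84.6 ± 10.2 TPM under anti-PD-1 and 87.8 ± 12.8 TPM under isotype (SD, n = 5 each), with a log2 change of -0.05.

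Ddit3 encodes CHOP, a transcription factor induced downstream of ATF4 that is linked to cell death under lasting stress (chromosome 10, 127290774 to 127296288, plus strand). A second entry with the same symbol lies within it in the GENCODE M21 annotation, so the values may join both. Ddit3 was at 14.3, 17.6, 24.8, 6.05 and 26.1 TPM in CZA+DAV132 anti-PD-1 libraries, against 26.2, 35.1, 37.5, 83.1 and 41.1 TPM in the CZA+DAV132 isotype libraries. Every anti-PD-1 library was below every isotype library, by a narrow margin between CD8-20 and CD8-11. The log2 change was -1.31 (SE 0.36, limma adjusted p = 0.015), and after scaling -0.87 (adjusted p = 0.022), with 20.7 ± 2.60 and 41.3 ± 19.7 scaled TPM (SD, n = 5 each). Without CD8-16 and CD8-19 the change was -0.84 and the adjusted p was 0.11. Groups that did not overlap, in the lower direction, were seen for Ddit3, Phgdh and Slc3a2 among the 10 and for 12.1% of all genes. After scaling they were seen for Ddit3, Ass1 and Slc3a2, and for 9.67% of all genes, while Phgdh overlapped.

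Trib3, a pseudokinase that ATF4 and CHOP induce and that restrains ATF4, was the least abundant, at a median of 1.63 TPM (chromosome 2, 152337422 to 152344032, minus strand). It was 0.355 to 1.97 TPM in CZA+DAV132 anti-PD-1 libraries and 0.783 to 6.34 TPM in the CZA+DAV132 isotype libraries. The groups overlapped, and the log2 change of -0.80 (SE 0.43) did not pass (limma adjusted p = 0.19). At these levels the log2(TPM + 1) scale understates folds.

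Ass1, argininosuccinate synthase, which joins citrulline and aspartate on the way to arginine, had the smallest p among the 10 (chromosome 2, 31470207 to 31520672, plus strand). It stood at 5.89, 4.98, 6.70, 2.04 and 13.2 TPM in CZA+DAV132 anti-PD-1 libraries, against 14.4, 20.4, 12.1, 16.1 and 21.5 TPM in the CZA+DAV132 isotype libraries. Only CD8-20 reached into the isotype range, and Ass1 changed by a log2 value of -1.38 (SE 0.31, limma adjusted p = 0.0081), -0.99 after scaling (adjusted p = 0.0028) and -1.02 without CD8-16 and CD8-19 (adjusted p = 0.036). A processed pseudogene, Gm5424, shares 99.5% of 1240 aligned bases with Ass1, and its median level was 0 TPM in each set, so reads split between them would be uncertain.

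Asns, asparagine synthetase, makes asparagine from aspartate with glutamine as nitrogen donor (chromosome 6, 7675169 to 7693254, minus strand). It read 14.1, 2.80, 6.77, 1.26 and 6.55 TPM in CZA+DAV132 anti-PD-1 libraries, against 9.90, 19.8, 26.1, 5.19 and 15.0 TPM in the CZA+DAV132 isotype libraries. The groups overlapped, and the log2 change of -1.26 (SE 0.52) did not pass (limma adjusted p = 0.08). It passed when CD8-16 was left out (adjusted p = 0.045) or CD8-14 (adjusted p = 0.041). The spread was wide in the CZA anti-PD-1 group too, at 4.82, 3.53, 8.23, 27.6 and 27.5 TPM, while the CZA isotype libraries lay between 11.5 and 15.4 TPM.

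The serine enzymes stand in sequence. Phgdh, phosphoglycerate dehydrogenase, takes the first step from glycolysis to serine (chromosome 3, 98313170 to 98339990, minus strand). It was at 25.8, 22.6, 34.8, 9.74 and 30.7 TPM in CZA+DAV132 anti-PD-1 libraries, against 45.5, 50.1, 53.3, 40.2 and 64.9 TPM in the CZA+DAV132 isotype libraries. The groups did not overlap, and the log2 change was -1.10 (SE 0.31, limma adjusted p = 0.017), or -0.64 after scaling (adjusted p = 0.03). Phgdh has 12 processed pseudogenes at 95.3% to 98.7% identity over 277 or more aligned bases, and those with rows had a median of 0 TPM.

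Psat1, phosphoserine aminotransferase, takes the next step (chromosome 19, 15904678 to 15947337, minus strand). It averaged 18.1 ± 9.12 TPM in CZA+DAV132 anti-PD-1 libraries and 29.9 ± 6.12 TPM in the CZA+DAV132 isotype libraries (SD, n = 5 each). CD8-20, at 30.9 TPM, lay among the isotype libraries, and the log2 change of -0.83 (SE 0.33) did not pass (limma adjusted p = 0.07). It passed when CD8-20 was left out, at a log2 change of -1.05 (adjusted p = 0.017).

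Shmt2, the mitochondrial enzyme that splits serine into glycine and a folate-bound carbon unit, lies on chromosome 10 (127517123 to 127522444, minus strand). It was at 13.9, 13.5, 19.9, 5.54 and 21.4 TPM in CZA+DAV132 anti-PD-1 libraries, against 17.4, 34.4, 42.7, 27.6 and 32.9 TPM in the CZA+DAV132 isotype libraries. The overlap came from CD8-11, the lowest isotype library. The log2 change was -1.08 (SE 0.33, limma adjusted p = 0.024) and -0.63 after scaling (adjusted p = 0.045). Leaving out CD8-19, CD8-12, CD8-13 or CD8-15, each alone, ended the call (limma adjusted p = 0.066, 0.052, 0.065 and 0.055).

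Slc3a2 encodes the CD98 heavy chain, which carries the light chain Slc7a5 (LAT1), the importer of leucine and other large neutral amino acids, to the cell surface. Slc3a2 (chromosome 19, 8706882 to 8723369, minus strand) was at 24.8, 40.4, 47.1, 12.2 and 47.4 TPM in CZA+DAV132 anti-PD-1 libraries, against 58.3, 55.0, 63.2, 70.3 and 66.4 TPM in the CZA+DAV132 isotype libraries. The groups did not overlap, with a log2 change of -0.99 (SE 0.30, limma adjusted p = 0.022). Scaling narrowed the spread to 40.1 ± 3.27 and 58.5 ± 5.40 scaled TPM (SD, n = 5 each), with a log2 change of -0.53 (adjusted p = 0.012). Without CD8-16 the unscaled adjusted p was 0.057, and without CD8-15 it was 0.052. Slc7a5 (chromosome 8, 121881150 to 121907694, minus strand) was at 12.0, 4.73, 11.1, 1.53 and 11.3 TPM in CZA+DAV132 anti-PD-1 libraries, against 8.84, 14.6, 14.5, 10.8 and 9.81 TPM in the CZA+DAV132 isotype libraries. Its low values were CD8-17 and CD8-19, and the log2 change of -0.69 (SE 0.40) did not pass (limma adjusted p = 0.21). So the heavy chain passed the test and the light chain did not; the difference between the chains was not tested.

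**Figure D2:**
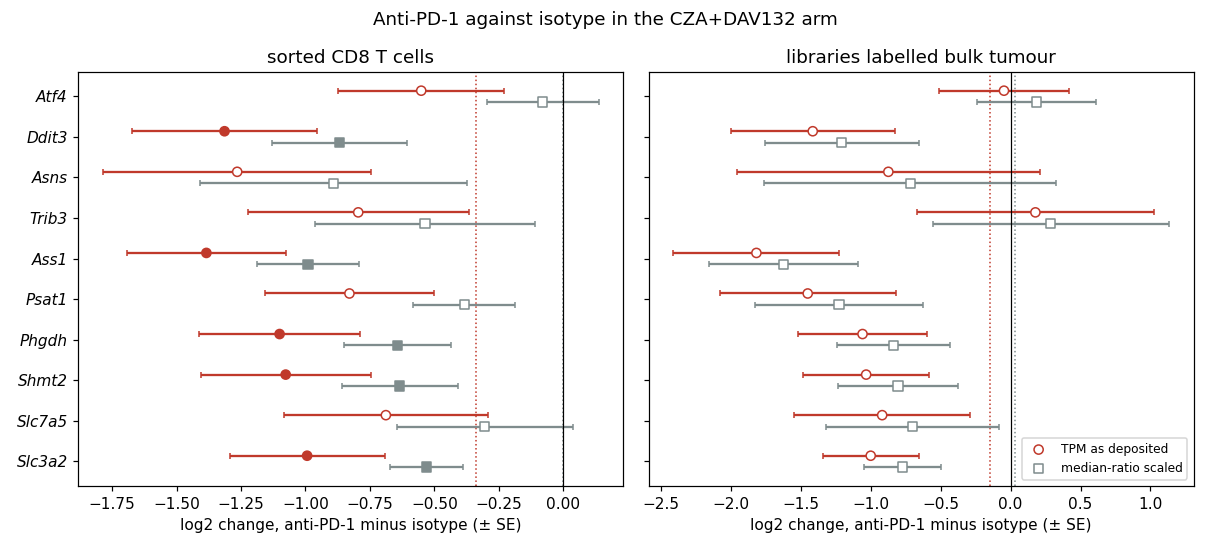
Log2 change of each gene, anti-PD-1 minus isotype in the CZA+DAV132 arm, with its SE, in sorted CD8+ T cells (left) and libraries labelled bulk tumour (right). Circles are TPM as deposited, squares are median-ratio scaled TPM, filled symbols have a limma adjusted p under 0.05, and dotted lines mark the median of all genes; 5 of the 10 genes are filled on the left on both scales and none on the right.

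Marker sums of some other cell types were lower in this comparison. Summed macrophage and monocyte markers were 126 ± 61.3 TPM in CZA+DAV132 anti-PD-1 libraries and 374 ± 206 TPM in the CZA+DAV132 isotype libraries (exact permutation p = 0.0476), and dendritic markers 9.60 ± 4.09 and 26.4 ± 8.22 TPM (exact permutation p = 0.0159; SD, n = 5 each). Their lists held 10 and 9 genes, of which Clec9a was at a median of 0. Summed T cell markers were 8969 ± 4618 and 13046 ± 1444 TPM (exact permutation p = 0.103). Fewer cells of a type and less RNA per cell cannot be told apart here, and the part of these cells in the changes was not tested. None of the marker sums given here was scaled, so a share taken by repeats lowers them too. That share was 20.3% and 2.83% in these groups, and its part in the sums was not tested.

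In the same comparison, calls were counted on 6 gene lists that include the 10 genes. They stand beside the 19.4% of all genes called lower, and no test compared a list with other genes. Of 17 tested genes of the integrated stress response, 6 fell and none rose, with a median log2 change of -0.55, against -0.34 over all genes. Apart from Ddit3, the 3 of smallest p were Atf3, a stress-induced transcription factor (-2.08, SE 0.43, limma adjusted p = 0.0069), Eif2s1, the eIF2 subunit that the stress kinases phosphorylate (-1.42, SE 0.27, adjusted p = 0.0059), and Ppp1r15a, a phosphatase subunit that reverses that step (-1.57, SE 0.44, adjusted p = 0.017). Atf3 averaged 1.54 ± 1.10 TPM in CZA+DAV132 anti-PD-1 libraries and 11.6 ± 11.5 TPM in the CZA+DAV132 isotype libraries, and Eif2s1 17.7 ± 7.67 and 45.5 ± 5.62 TPM (SD, n = 5 each). After scaling, 4 of the list fell and 2 rose, where 14.1% of all genes were called lower and 1471 of 12942 higher. The list median was then -0.08, close to the -0.003 of all genes.

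Of 16 tested enzymes of serine, glycine and folate carbon metabolism, 4 fell and none rose (median log2 change -0.66, against -0.34 over all genes). Phgdh and Shmt2 were among them, as was Gcsh, a carrier protein of the glycine cleavage system (-1.003, SE 0.30, limma adjusted p = 0.023). Psph, which completes serine synthesis, had a change of -0.71 (adjusted p = 0.054). Of 15 enzymes of asparagine, arginine, proline and glutamine metabolism, 6 fell and 1 rose (median -0.82). Pycr1, a mitochondrial enzyme of proline synthesis, was the gene that rose (1.14, SE 0.33, limma adjusted p = 0.02). Got1, the cytosolic aspartate aminotransferase, averaged 7.98 ± 3.15 TPM in CZA+DAV132 anti-PD-1 libraries and 14.5 ± 1.18 TPM in the CZA+DAV132 isotype libraries (SD, n = 5 each), and fell (-0.86, adjusted p = 0.023).

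Amino acid transporters did not move one way: of 13 tested, Slc3a2 fell and Slc7a11, the cystine importer, rose (0.69, SE 0.19, limma adjusted p = 0.014), with a median log2 change of -0.24. Slc36a1 and Slc43a2 had positive changes that did not pass (0.49 and 0.84, adjusted p = 0.062 and 0.069). Of 20 cytosolic aminoacyl-tRNA synthetases, the enzymes that charge tRNAs, 6 fell and none rose (median -0.61), led by Kars (-0.99, adjusted p = 0.015), Farsb (-0.93, adjusted p = 0.022) and Farsa (-0.84, adjusted p = 0.031). Of 17 genes of endoplasmic reticulum folding and of the XBP1 and ATF6 arms, 8 fell and none rose (median -0.69). Dnajb9 (-1.41, adjusted p = 0.0082), Manf (-1.10, adjusted p = 0.014) and Sdf2l1 (-1.11, adjusted p = 0.019), all chaperone or folding factors, had the smallest p.

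These counts rest in part on scale and on the repeat-rich libraries. Median-ratio scaling left 14.1% of all genes called lower, and 1471 of 12942 called higher. The serine list then had 3 lower and none higher, and the asparagine and arginine list 3 lower and 1 higher. The transporters had 1 lower and 3 higher (median 0.02, a change of sign). The synthetases had 2 lower and none higher, and the folding list 7 lower and 3 higher. Without CD8-16 and CD8-19, 665 of all 12794 genes tested were called lower and 542 higher. On the lists, 3 stress response genes were then lower and 1 higher, and 1 transporter was higher. No synthetase or serine enzyme was called, 2 asparagine and arginine enzymes were lower, and the folding list had 1 lower and 1 higher. In the other 9 comparisons of both sets, no gene of these lists was called.

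**Figure D3:**
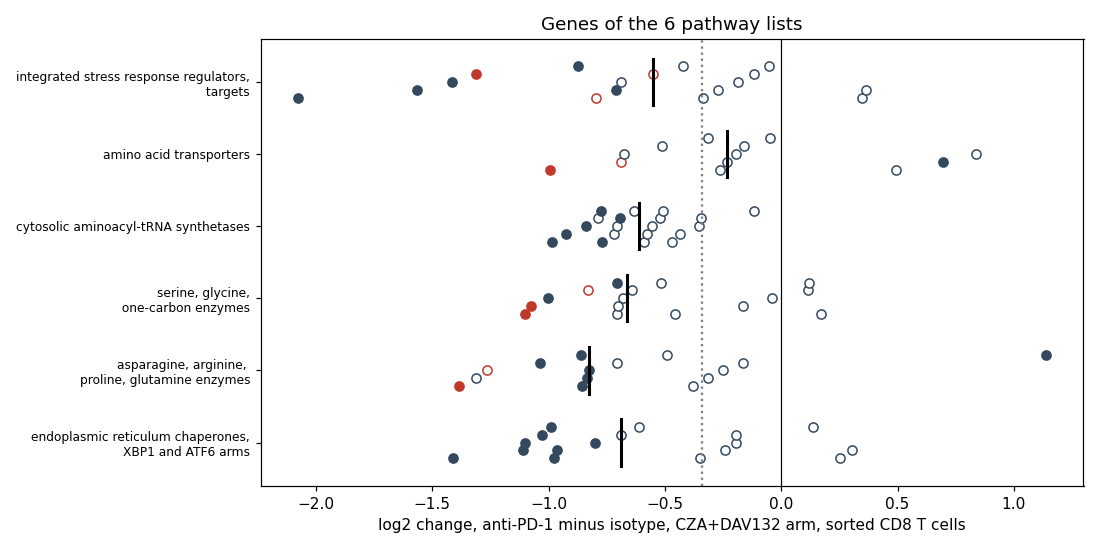
Log2 change of each tested gene of the 6 lists, anti-PD-1 minus isotype in the CZA+DAV132 arm of the sorted CD8+ T cells. Filled points have a limma adjusted p under 0.05 and red marks the 10 genes described here. Black bars are list medians and the dotted line is the median of all genes (-0.34). The medians of all lists but the transporters lie left of that line.

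In the CZA arm of the sorted cells, none of the 10 genes passed between anti-PD-1 and isotype, where 0.0155% of all genes did. At an unadjusted p under 0.05, 1 of the 10 was lower, Ass1, against 3.14% of all genes, and the median log2 change of all genes was -0.02. Ass1 was at 12.1, 7.48, 6.63, 10.1 and 9.69 TPM in the CZA anti-PD-1 libraries (CD8-6 to CD8-10), against 11.4, 26.3, 19.1, 20.1 and 18.4 TPM in the CZA isotype libraries (CD8-1 to CD8-5). CD8-1 was the only isotype library within the anti-PD-1 range. The log2 change was -0.96 (SE 0.31, limma adjusted p = 0.65, exact permutation p = 0.0159). The other 9 genes had changes of -0.41 to 0.11. Ddit3 was 16.6 to 35.7 TPM in CZA anti-PD-1 libraries and 20.6 to 57.7 TPM in CZA isotype libraries. Slc3a2 was 45.2 to 86.3 TPM under anti-PD-1 and 47.3 to 87.5 TPM under isotype in this arm. Phgdh averaged 48.6 ± 20.3 and 58.8 ± 15.8 TPM, Psat1 29.7 ± 10.1 and 34.5 ± 10.3 TPM, and Shmt2 25.6 ± 8.03 and 34.8 ± 14.4 TPM (SD, n = 5 each). For each of these genes the groups overlapped. Summed macrophage markers were 215 ± 135 TPM in CZA anti-PD-1 libraries and 719 ± 489 TPM in CZA isotype libraries (SD, n = 5 each, exact permutation p = 0.0317), and their part in the Ass1 difference was not tested.

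The DAV132 comparison under anti-PD-1 shares its CZA+DAV132 anti-PD-1 libraries with the comparison above. None of the 10 genes was called, against 0.0386% of all genes, and 5 were lower at an unadjusted p under 0.05, against 30.5% of all genes. The median log2 change was -0.77 over the 10 genes and -0.40 over all genes. After median-ratio scaling none of the 10 was called. At an unadjusted limma p under 0.05, 2 of the 10 were then lower, against 1393 of 12942 genes, with medians of -0.29 and -0.007. The values that follow are unscaled. Slc3a2 averaged 34.4 ± 15.4 TPM in CZA+DAV132 anti-PD-1 libraries and 64.0 ± 16.0 TPM in the CZA anti-PD-1 libraries (SD, n = 5 each), a log2 change of -0.99 (limma adjusted p = 0.068). Phgdh averaged 24.7 ± 9.58 and 48.6 ± 20.3 TPM (log2 change -0.96, adjusted p = 0.07). Shmt2, Psat1 and Ddit3 had changes of -0.81, -0.78 and -0.75, and the other 5 genes of -0.94 (Asns) to -0.25 (Atf4). Leaving out CD8-20 alone, 5 of the 10 genes were called lower, as were 29.2% of all genes. Leaving out CD8-18 or CD8-8, each alone, called Phgdh and Slc3a2, and how many of all genes were called then is not reported here. Testing only genes with a mean of at least 5 TPM kept 9 of the 10. It also called Phgdh and Slc3a2, where 1321 of 7547 genes were called lower. The repeat share was 20.3% ± 19.3 in CZA+DAV132 anti-PD-1 libraries and 6.39% ± 3.21 in CZA anti-PD-1 libraries (exact permutation p = 0.0556), and dendritic markers 9.60 ± 4.09 and 13.5 ± 0.872 TPM (exact permutation p = 0.0317; SD, n = 5 each). Their part was not tested.

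Between CZA+DAV132 and CZA under isotype, no gene of the 10 was called, and of all genes 0% were. At an unadjusted limma p under 0.05 there were 0 of the 10 and 320 of 12942 genes. The changes of the 10 ran from -0.18 for Phgdh to 0.42 for Ddit3, against a median of -0.06 over all genes. The test of whether the anti-PD-1 change differed between the arms also called none of the 10 and 0% of all genes. At an unadjusted limma p under 0.05 it had 2 of the 10 and 2036 of 12942 genes. Slc3a2 had a difference between arms of -1.11 in log2 change (SE 0.42, limma adjusted p = 0.29) and Ddit3 of -1.17 (SE 0.51, adjusted p = 0.3). The other 8 genes had differences of -0.96 (Asns) to -0.43 (Ass1), and the median of all genes was -0.37. The call of 5 genes in the CZA+DAV132 arm and of none in the CZA arm is therefore not shown to be a difference between arms.

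The libraries labelled bulk tumour came from a separate experiment. In their CZA+DAV132 arm, 9 of the 10 genes had negative changes under anti-PD-1, as did 7921 of 13326 genes. The 5 genes called in the CD8 set were among these 9. None of the 10 passed the adjusted test (0.24% of all 13326 genes did). At an unadjusted p under 0.05, 6 of 10 were lower, against 6.72% of all genes. The median log2 change was -1.02 over the 10 genes and -0.15 over all genes. After median-ratio scaling 3 of 10 were lower at that p, against 4.53% of all genes, with medians of -0.79 and 0.03. Without the repeat-rich libraries T026 and T985 the count was also 3, against 4.71% of all genes, with medians of -0.85 and -0.04. Scaling to TPM without the repeat entries left 2, and how many of all genes were lower then is not reported here. Psat1 was at 17.8, 12.5, 10.7, 25.0 and 26.6 TPM in CZA+DAV132 anti-PD-1 libraries (T021, T023, T026, T029 and T030), against 43.0, 61.1, 46.0 and 49.2 TPM in the CZA+DAV132 isotype libraries (T022, T024, T027 and T028). These groups did not overlap, as for 4.43% of all genes in that direction, and after scaling the same held for Psat1, Phgdh and Slc3a2 and for 3.91% of all genes. The log2 change was -1.45 (SE 0.63, limma adjusted p = 0.39, exact permutation p = 0.00794, the smallest possible here).

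Ass1 was at 19.0, 11.7, 1.95, 29.8 and 10.6 TPM in the bulk CZA+DAV132 anti-PD-1 libraries, against 47.9, 68.2, 22.6 and 41.8 TPM in the CZA+DAV132 isotype libraries. T029 was the only anti-PD-1 library above the lowest isotype library, and the log2 change was -1.82 (SE 0.59, limma adjusted p = 0.2). Slc3a2 was at 51.5, 25.0, 27.4, 61.9 and 58.1 TPM, against 127, 82.4, 55.0 and 89.4 TPM, with a log2 change of -1.001 (SE 0.34, limma adjusted p = 0.23). Only the isotype library T027 lay within the anti-PD-1 range. Neither passed.

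Ddit3 in these bulk libraries was at 15.0, 2.75, 9.06, 17.7 and 26.6 TPM under anti-PD-1, against 15.7, 34.0, 27.2 and 75.2 TPM under isotype (log2 change -1.42, SE 0.59, limma adjusted p = 0.36). Phgdh was at 20.0, 12.8, 10.5, 42.0 and 28.1 TPM under anti-PD-1, against 45.7, 42.4, 45.6 and 38.6 TPM under isotype, where T029 alone lay within the isotype range (-1.06, SE 0.46, adjusted p = 0.39). Shmt2 averaged 21.9 ± 9.52 and 44.4 ± 13.6 TPM (-1.03, adjusted p = 0.4) and Slc7a5 8.23 ± 3.07 and 16.9 ± 7.38 TPM (-0.92, adjusted p = 0.71; SD, n = 5 and 4). Atf4 was at 164, 215, 52.3, 144 and 221 TPM, against 95.9, 131, 138 and 273 TPM, with a log2 change of -0.05. Its low value was T026, the library with most repeats. Dendritic markers were 16.9 ± 8.78 TPM in the anti-PD-1 libraries and 40.0 ± 12.8 TPM in the isotype libraries (SD, n = 5 and 4, exact permutation p = 0.0159); their part was not tested.

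**Figure D4:**
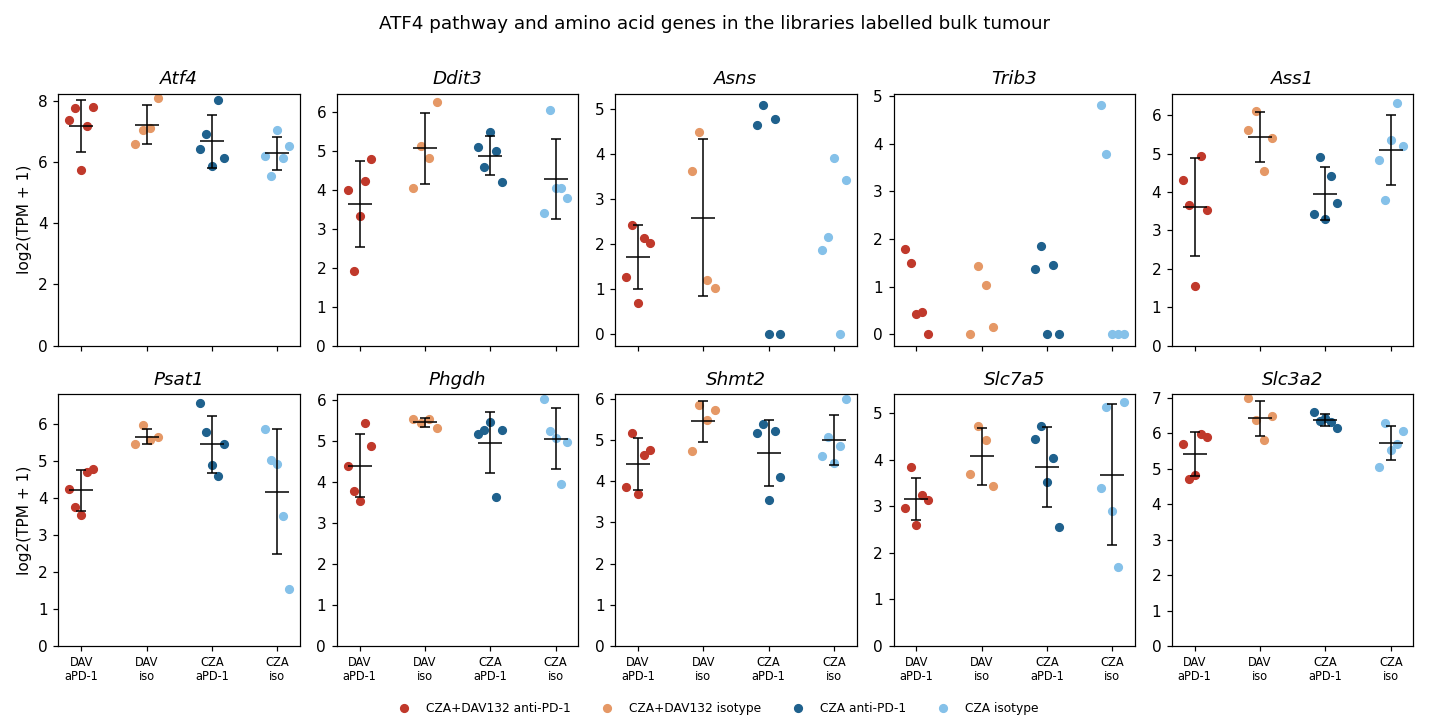
Level of each gene in the libraries labelled bulk tumour, as log2(TPM + 1), in the CZA+DAV132 (DAV) and CZA arms under anti-PD-1 (aPD-1) or isotype (iso). Points are libraries and black bars are mean ± SD, left out where a library is listed at 0; for Psat1 the CZA+DAV132 anti-PD-1 libraries all lie below the CZA+DAV132 isotype ones.

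Asns and Trib3 were listed at 0 in some bulk libraries. Asns was at 1.40, 4.34, 0.618, 3.39 and 3.09 TPM in CZA+DAV132 anti-PD-1 libraries, against 11.3, 21.5, 1.29 and 1.04 TPM in the CZA+DAV132 isotype libraries. In the CZA arm it was at 23.8, 32.9, 0, 26.6 and 0 TPM under anti-PD-1, against 2.67, 3.46, 14.1, 0 and 9.75 TPM under isotype. Values varied widely within each group and all groups overlapped. The log2 change under anti-PD-1 was -0.88 for Asns and 0.18 for Trib3 in the CZA+DAV132 arm. Trib3 was at 2.46, 1.80, 0.339, 0.386 and 0 TPM in CZA+DAV132 anti-PD-1 libraries, against 0, 1.72, 1.04 and 0.114 TPM in the CZA+DAV132 isotype libraries. In the CZA arm, 2 isotype libraries held 26.99 and 12.8 TPM, and the other 3 were listed at 0.

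In the bulk CZA arm, anti-PD-1 against isotype called none of the 10 genes and 0.285% of all genes, whose median log2 change was 0.25. Ass1 was at 9.75, 29.3, 8.80, 20.4 and 12.1 TPM in CZA anti-PD-1 libraries (T982, T984, T988, T989 and T990), against 27.7, 13.0, 39.6, 79.0 and 35.5 TPM in CZA isotype libraries (T983, T985, T986, T987 and T991). The groups overlapped, at a log2 change of -1.15 (SE 0.56, limma adjusted p = 0.39). Psat1 went the other way from the DAV132 arm, at 48.1 ± 27.7 TPM under anti-PD-1 and 26.03 ± 21.3 TPM under isotype (SD, n = 5 each), a log2 change of 1.28 (adjusted p = 0.36). Slc3a2 had 82.1 ± 9.74 and 54.5 ± 17.9 TPM, a change of 0.64 (adjusted p = 0.41). Atf4, Ddit3, Asns and Slc7a5 had changes of 0.39, 0.61, 0.63 and 0.18, and Trib3, Shmt2 and Phgdh of -0.78, -0.31 and -0.09. Summed T cell markers differed here too, 11874 ± 2144 TPM under anti-PD-1 and 7871 ± 504 TPM under isotype (exact permutation p = 0.00794), and their part was not tested.

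Between CZA+DAV132 and CZA under anti-PD-1 in the bulk set, none of the 10 genes and 0% of all genes were called. At an unadjusted limma p under 0.05 there were 3 of the 10 and 1010 of 13326 genes. Slc3a2 was at 51.5, 25.0, 27.4, 61.9 and 58.1 TPM in CZA+DAV132 anti-PD-1 libraries, against 96.5, 80.0, 84.9, 79.4 and 69.7 TPM in CZA anti-PD-1 libraries. These did not overlap, as for 1.91% of all genes in that direction, and the log2 change was -0.95 (SE 0.32, limma adjusted p = 0.41, exact permutation p = 0.00794). The other 9 genes had changes of -1.24 (Psat1) to 0.50 (Atf4), against a median of -0.19 over all genes. Erythroid markers were 122 ± 72.3 and 38.1 ± 27.9 TPM in these groups (SD, n = 5 each, exact permutation p = 0.0159) and dendritic markers 16.9 ± 8.78 and 26.2 ± 3.27 TPM (exact permutation p = 0.0476), and their part was not tested. Under isotype, none of the 10 and 0.113% of all genes were called, with Psat1 at 1.48 and Atf4 at 0.94 in log2 change (adjusted p = 0.39 and 0.48). The other 8 genes had changes of -1.06 (Trib3) to 0.79 (Ddit3), against a median of 0.21 over all genes. Summed T cell markers were 10038 ± 1910 TPM in CZA+DAV132 isotype libraries and 7871 ± 504 TPM in CZA isotype libraries (SD, n = 4 and 5, exact permutation p = 0.0397), and their part was not tested. The difference of the anti-PD-1 change between arms called none of the 10 and 0.045% of all genes. Psat1 differed between arms by -2.73 (SE 0.86, limma adjusted p = 0.33) and Slc3a2 by -1.64 (SE 0.47, adjusted p = 0.29). The other 8 genes differed by -2.02 (Ddit3) to 0.96 (Trib3), against a median of -0.42 over all genes.

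Ass1, Phgdh and Shmt2 had negative changes under anti-PD-1 in both arms of both sets. For Phgdh the log2 changes were -1.10 and -0.32 in the CD8 CZA+DAV132 and CZA arms and -1.06 and -0.09 in the bulk arms. For Shmt2 they were -1.08, -0.41, -1.03 and -0.31 in the same order. In the CD8 and bulk CZA arms, the SE was 0.31 and 0.43 for Phgdh and 0.33 and 0.42 for Shmt2. The Phgdh change in the bulk CZA arm changed sign in 2 of 29 alternatives. For Ass1, each of the 20 anti-PD-1 libraries lay below the mean of the isotype libraries of its own arm and set. The groups overlapped on TPM in all 4 comparisons. How many of all genes were lower in all 4 comparisons, or in all 20 libraries, is not reported here. The log2 changes of Ass1 were -1.38, -0.96, -1.82 and -1.15 on TPM and -0.99, -0.94, -1.62 and -1.35 after scaling, and the adjusted test was passed in the CD8 CZA+DAV132 arm only. Summed macrophage and monocyte markers were also lower in the same 4 comparisons, in the bulk set at 75.6 ± 26.6 TPM against 202 ± 117 TPM in the CZA+DAV132 arm and 120 ± 66.6 TPM against 305 ± 193 TPM in the CZA arm (exact permutation p = 0.0556 in both). Their part in Ass1 was not tested.

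Within groups, some of the genes varied together from library to library. Deviations from group means of scaled log2 values gave Pearson r = 0.736 between Phgdh and Psat1 over the 20 CD8 libraries (permutation p = 0.00028, adjusted over 12 relations p = 0.00336; Spearman rho = 0.764, adjusted permutation p = 0.00156), and 0.669 without the 2 libraries farthest out. Psat1 and Shmt2 gave r = 0.680 (adjusted permutation p = 0.00678; rho = 0.728, adjusted p = 0.0024), and 0.625 without 2 libraries. The chains Slc7a5 and Slc3a2 gave r = 0.423 (adjusted permutation p = 0.166; rho = 0.385), Ddit3 and Trib3 0.413 (adjusted p = 0.166; rho = 0.411), Asns and Atf4 0.263 (adjusted p = 0.397; rho = 0.152) and Ass1 and Asns 0.183 (adjusted p = 0.527; rho = 0.168). Without the 2 libraries farthest out, these r were 0.50, 0.59, -0.15 and 0.37, so that of Asns and Atf4 changed sign. In the bulk set, Phgdh and Psat1 gave r = 0.486 (adjusted permutation p = 0.166; rho = 0.583, adjusted p = 0.0414), and Psat1 and Shmt2 -0.298 (adjusted p = 0.372; rho = -0.0474). Slc7a5 and Slc3a2 gave 0.117 there (adjusted permutation p = 0.691), and Ddit3 and Trib3 0.0197 (adjusted p = 0.935). Asns and Atf4 gave 0.359 (adjusted permutation p = 0.264), and Ass1 and Asns 0.235 (adjusted p = 0.446). Over the 45 pairs of the 10 genes, the median r was 0.438 in CD8 libraries and 0.020 in bulk libraries.

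Over the same 20 CD8 libraries and measure, and as a description, the genes most like Atf4 were Hsp90aa1 (r = 0.922) and Hsp90ab1 (r = 0.861), which encode cytosolic HSP90 chaperones, and Pp2d1 (r = 0.850). Those most like Asns were Rrm2 (r = 0.836), a ribonucleotide reductase subunit, Mthfd2 (r = 0.827), a mitochondrial folate enzyme, and Pck2 (r = 0.816), the mitochondrial phosphoenolpyruvate carboxykinase. Pp2d1 and Pck2 were low, at medians of 0.791 and 1.93 TPM. Scaled Atf4 was highest in CD8-16 (174) and CD8-14 (147), and these r were not computed again with libraries left out.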

How the data were processed

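RNA of MCA-205 tumours' CD8+ T cells (20 sorted libraries) and of samples labelled bulk tumour (19 libraries) was ribodepleted and sequenced, per the labels' protocols. The deposited values are TPM per gene symbol, from kallisto 0.45 on GRCm38 per the submitters' processing notes; the annotation, and how transcripts were joined to genes, were not given in the sources used here. TPM keeps no read depth, so no counting interval is given. Each table was analysed on its own, since their levels were set in separate experiments.

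Genes reaching 1 TPM in 4 or more libraries were fitted as log2(TPM + 1) with limma 3.58.1 in R 4.3.3, a mean per group and a mean-variance trend, two-sided, with Benjamini-Hochberg adjustment over all genes of a table and a call under 0.05. In all, 5 pairwise and interaction contrasts were taken per table. Fold changes understate those of low genes. Single values were compared by exact two-sided permutation over libraries. The alternatives were another pseudocount, other filters, scalings, weights, samples and each library left out. The 10 genes, the gene lists and the tests were chosen with earlier results of these data known. Each comparison gives all 10, singly or by their range. Other list genes are named for the CD8 CZA+DAV132 comparison only, those of smallest p, except a few that are not reported here. Coordinates are from GENCODE M21 on GRCm38.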

Additional observations from a re-analysis of the deposited data

Results flagged for a closer look

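Groups of 4 or 5 libraries were checked for a library far from the rest, by its gap to the nearest of the others as a share of the group's range. This marked 8 of 80 groups. The limits used mark about 1 in 20 groups of independent, normally distributed values. The check was made on TPM without a log scale, and groups of different genes share libraries. The count is therefore not compared with that rate. In CD8 libraries of the CZA+DAV132 isotype group, CD8-14 stood high for Atf4 (162 TPM, the next 105) and for Ddit3 (83.1 TPM, the next 41.1). In the CD8 CZA isotype group, CD8-3 stood high for Ddit3 (57.7 TPM, the next 30.6), Trib3 (6.21 TPM, the next 2.43) and Shmt2 (59.7 TPM, the next 31.8). In the bulk CZA isotype group, T985 stood high for Ddit3 (65.0 TPM, the next 15.6) and T991 for Shmt2 (62.6 TPM, the next 32.3). In the bulk CZA anti-PD-1 group, T989 stood low for Phgdh (11.4 TPM, the next 34.9).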

How the results depend on the processing

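In the CD8 CZA+DAV132 arm, 5 of the 10 genes and 3042 of all genes were called between anti-PD-1 and isotype. Fitting only the groups compared gave 2 and 1281, and leaving out CD8-16 and CD8-19 gave 1 and 1207. Scaling without these libraries, chosen after seeing the data, gave 2 and 2028. Leaving out single libraries gave 3 (without CD8-15) to 6 of the 10, and 1795 (without CD8-16) to 4451 (without CD8-20) of all. No direction of a called gene turned under the alternatives run. In the bulk set none of the 10 was called under any alternative, nor in the CD8 CZA arm, under isotype or for the difference between arms. In CD8 DAV132 against CZA under anti-PD-1, a mean of at least 5 TPM gave 2 of the 9 genes tested then. Single libraries left out gave 0 to 5 of the 10.

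Counts of all genes follow. CD8 CZA arm, 2 in the main analysis: no filter 0, median-ratio scaling 5, without CD8-16 and CD8-19 6 and with scaling too 6, single libraries left out 0 to 2. CD8 DAV132 under anti-PD-1, 5: only the groups compared 0, pseudocount 0.1 1, no filter 0, mean of at least 5 TPM 1365, scaling 3, TPM rescaled without repeats 11, array weights 541, without CD8-16 and CD8-19 2 and with scaling 3, single libraries left out 0 to 3993 (without CD8-20). CD8 under isotype, 0: only the groups compared 2, scaling 3, rescaled 3, weights 3, without CD8-16 and CD8-19 2 and with scaling 2, single libraries left out 0 to 2. CD8 difference between arms, 0: scaling 1, weights 6, without CD8-16 and CD8-19 1, single libraries left out 0 to 1.

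Bulk CZA+DAV132 arm, 32: only the groups compared 6, no filter 14, mean of at least 5 TPM 57, rescaled 104, weights 308, without T026 and T985 14 and with scaling 20, single libraries left out 0 to 132. Bulk CZA arm, 38: only the groups compared 6, pseudocount 0.1 97, no filter 9, mean of at least 5 TPM 24, scaling 24, weights 6, without T026 and T985 78, single libraries left out 5 to 119. Bulk DAV132 under anti-PD-1, 0: only the groups compared 1, pseudocount 0.1 4, no filter 1, scaling 2, rescaled 1, weights 42, without T026 and T985 2 and with scaling 3, single libraries left out 0 to 8. Bulk under isotype, 15: only the groups compared 0, pseudocount 0.1 31, weights 5, without T026 and T985 47 and with scaling 54, single libraries left out 5 to 73. Bulk difference between arms, 6: no filter 3, mean of at least 5 TPM 3, scaling 0, rescaled 1, without T026 and T985 11 and with scaling 10, single libraries left out 0 to 18. The cause of these differences was not tested. No paired analysis was possible because the groups share no replicate numbers. Depth is unknown, so the counting error of low values such as Trib3 cannot be given.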
